A study of Rattus norvegicus with 20 samples.

Results

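Tamoxifen and raloxifene, given to ovariectomised rats at the same daily dose, were compared directly for gene expression in the mesenteric artery. Of the 20 arrays of the series, 7 belong to this comparison: the 4 arrays titled as tamoxifen and the 3 titled as raloxifene, 1 array per rat. All 7 lie in 1 of the 2 sets into which the deposited array medians divide the series, together with vehicle arrays 2, 3 and 4. Every probe that carries 1 gene symbol was compared, 13324 probes with all arrays, and adjustment was over all 24562 probes tested. This is 1 pair of compounds, so no further pairs entered the adjustment.

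The rats were female Sprague Dawley animals whose ovaries had been removed at 4 weeks of age, and they were 9 weeks old at collection. After 2 weeks of recovery they were gavaged once a day for 3 weeks with tamoxifen at 3 mg/kg, raloxifene at 3 mg/kg, or the vehicle alone, which was a cyclodextrin solution. Other rats of the series received an estrogen at 0.15 mg/kg: ethinyl estradiol, estradiol benzoate or equilin. Their arrays, 3 for each estrogen, enter the fit over all 20 arrays. The missing ovaries are common to all groups, vehicle included, so each drug acted in an animal without ovarian estrogen. Only 1 dose and 1 time were studied for each drug, and the design text gives 3 arrays for each treatment although tamoxifen and vehicle have 4 samples each. Arteries were dissected free of veins and fat before RNA extraction.

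Both drugs are selective estrogen receptor modulators, which bind the estrogen receptors and act as agonists in some tissues and as antagonists in others. Tamoxifen has a triphenylethylene core and raloxifene a benzothiophene core, and each carries a side chain with a basic amine. In arteries estrogen receptors are found in smooth muscle and endothelium, where estrogens are known for effects on nitric oxide synthesis, matrix deposition and growth of the wall.

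Levels are given on the log2 scale relative to the median probe of the same array, so a level of 0 is that of the median probe. Differences are tamoxifen minus raloxifene on that scale, with 95% confidence intervals from limma. Levels of different probes were not compared with each other, except to rank the probes of 1 gene by brightness. The contractile genes that define this tissue were bright in all 10 arrays of the set: Myh11, smooth muscle myosin, lay between 7.64 and 9.03, and Tagln, transgelin, between 7.01 and 8.01. The probe for Acta2, smooth muscle actin, was an exception and read between -1.35 and 0.51. Adipoq, a fat cell gene, read between 5.55 and 6.65 and Pecam1, an endothelial gene, between 5.19 and 6.30, so markers of fat and endothelium were present too. In RNA from whole tissue, fewer cells of a type and less RNA per cell cannot be told apart.

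Raloxifene array 3 stood apart from the other arrays. It correlated with raloxifene arrays 1 and 2 at 0.868 and 0.873, whereas these correlated with each other at 0.986 and with the tamoxifen arrays at 0.962 to 0.986. Its level differed from the mean of the other raloxifene arrays by more than 1 at 26.6% of probes, against 1.64% of probes between arrays 1 and 2. The mean level of all 10191 genes, at 1 probe per gene, was 1.82 in it and 2.00 to 2.25 in the other arrays of the set. The main results are therefore given with all 7 arrays and without raloxifene array 3, which leaves 4 arrays against 2, and a value given one way only is named as such. Tamoxifen array 3 also had its highest correlation, 0.989, with vehicle array 4 and not with another tamoxifen array. Precision is limited by how few arrays each group has.

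With all arrays, 1 probe passed limma's test at an adjusted p under 0.05, which is 0.00407% of the probes tested and 0.00751% of those with 1 gene symbol. It measured Armc5, which encodes an armadillo repeat protein that serves as an adaptor of a ubiquitin ligase. The tamoxifen arrays read 3.08, 2.71, 3.11 and 2.82, and the raloxifene arrays 0.87, 1.46 and 0.26. The lowest tamoxifen array was thus well above the highest raloxifene array, and the outlying raloxifene array 3 was the lowest of all. The difference was 2.07 ± 0.30 (SE), a level 4.20 times as high under tamoxifen (95% CI, 2.73 to 6.45), with limma's adjusted p = 0.0391.

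Vehicle arrays 2, 3 and 4 read 3.05, 3.34 and 3.59 for Armc5, close to the tamoxifen arrays. The means of the estrogen groups lay between 2.49 and 3.10, so the raloxifene mean of 0.86 ± 0.60 (SD, n = 3) was the lowest of the 6 groups. Against vehicle, with the array set as a block, Armc5 was -2.47 under raloxifene (limma's adjusted p = 0.0139) and -0.40 under tamoxifen (adjusted p = 0.968). Those fits called 0.0204% and 0.106% of all probes for raloxifene and tamoxifen, and they share the vehicle arrays. Without raloxifene array 3 Armc5 was -2.16 under raloxifene (adjusted p = 0.0287), where 0.0204% of probes were called for raloxifene and 0.383% for tamoxifen.

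Without raloxifene array 3 the Armc5 arrays still did not overlap, and the difference was 1.77 (95% CI, 1.14 to 2.40), but limma's adjusted p was 0.444. In the 19 alternative analyses with all arrays the difference lay between 1.77 and 2.37, and it passed in 9 of them. Leaving out any 1 of the 7 arrays other than raloxifene array 2 left no probe called. With the array set as a block the adjusted p was 0.0574, and within that set alone it was 0.338. A second probe for the same gene was brighter, with a mean of 3.57 over all arrays. The highest group mean of the called probe was 3.22. The brighter probe gave a smaller difference of 0.77, and 0.45 without raloxifene array 3, and did not pass.

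The sequence just upstream of this gene is shown because Armc5 was the 1 gene called. RefSeq (GRCr8) places the 250 bases before its start at chr1:192250330-192250579, plus strand. No searched motif occurs in it on either strand, so no letter is in capitals.
Armc5: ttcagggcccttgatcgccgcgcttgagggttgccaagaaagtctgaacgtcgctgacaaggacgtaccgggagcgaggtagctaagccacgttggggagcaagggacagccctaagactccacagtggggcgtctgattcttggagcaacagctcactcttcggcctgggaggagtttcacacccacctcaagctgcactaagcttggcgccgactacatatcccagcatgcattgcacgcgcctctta
The motifs searched were the estrogen response element palindrome, the single receptor site AGGTCA, the AP-1 site TGANTCA and the Sp1 box GGGCGG. Both strands were searched, and a palindrome flanked by A also holds AGGTCA. Among 33469 rat promoters of the same length, 0.0239%, 14.1%, 6.34% and 30.5% hold them, respectively. Of the 12 genes with the clearest separation, named in the next paragraphs, 0 hold either estrogen receptor motif or the AP-1 site, and 8 hold the Sp1 box, in windows taken the same way. A missing match says only that these letters are not in the window.

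**Figure D1:**
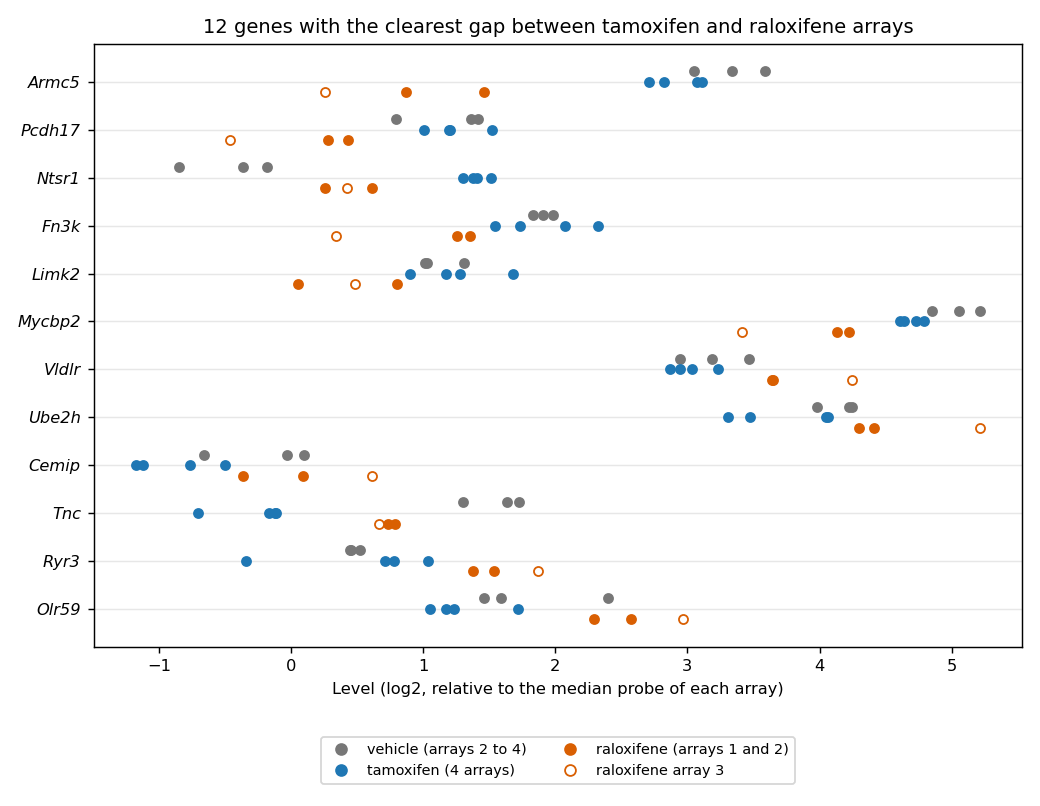
Levels of 12 genes in each array (horizontal axis, log2 relative to the array's median probe), for vehicle arrays 2 to 4, the 4 tamoxifen arrays and the raloxifene arrays, with raloxifene array 3 as an open circle. These genes were chosen because their tamoxifen and raloxifene arrays do not overlap; Armc5, at the top, has the widest gap.

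A further 11 genes were named by rule as those with the largest moderated t and no overlap between the compounds, 5 higher and 6 lower under tamoxifen. None of these passed (limma's adjusted p from 0.231 to 0.348), so their values are descriptions. Over all probes, 4.74% lay wholly higher and 3.55% wholly lower under tamoxifen, without overlap. The plot of the 12 genes shows all their arrays.

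Ntsr1, the receptor for the peptide neurotensin, read 1.51, 1.38, 1.40 and 1.30 under tamoxifen and 0.25, 0.61 and 0.42 under raloxifene. The vehicle arrays of the same set read -0.36, -0.19 and -0.85, below all arrays of both drugs. The difference between the drugs was 0.97 (95% CI, 0.56 to 1.38) and hardly moved, to 0.96 (0.50 to 1.42), without raloxifene array 3. Ntsr1 rose by 1.86 ± 0.18 (SE) under tamoxifen against vehicle (limma's adjusted p = 0.000212), a call that held in all 18 alternatives run. Under raloxifene it was 0.89 higher than vehicle (adjusted p = 0.0708, and 0.154 without array 3).

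Pcdh17, a protocadherin of cell adhesion, differed by 1.15, and by 0.88 without array 3, with raloxifene arrays at 0.27, 0.43 and -0.46 and no overlap. Limk2, a kinase that acts on the actin-severing protein cofilin, read 1.28, 1.17, 1.68 and 0.90 against 0.05, 0.80 and 0.48. In both genes the vehicle arrays lay within or near the tamoxifen range and above every raloxifene array. Fn3k, which removes sugars bound to proteins, differed by 0.93, and by 0.61 without raloxifene array 3. Mycbp2, a ubiquitin ligase, differed by 0.77 and 0.52, but its other probes gave 0.20 and 0.31 with all arrays and -0.16 and -0.13 without array 3.

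Among the genes lower under tamoxifen, Tnc, which encodes the matrix glycoprotein tenascin-C, read -0.17, -0.12, -0.12 and -0.71 against 0.79, 0.74 and 0.66 under raloxifene. The vehicle arrays read 1.30, 1.63 and 1.72, above both drugs. The difference was -1.01 (95% CI, -1.51 to -0.51) with all arrays and -1.04 (-1.61 to -0.47) without raloxifene array 3. A further Tnc probe gave -1.21 and -0.82. Against vehicle Tnc fell by 1.83 under tamoxifen (limma's adjusted p = 0.00074, held in all 18 alternatives). Under raloxifene it was -0.82 from vehicle (adjusted p = 0.103, and 0.266 without array 3).

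Olr59, an olfactory receptor gene, read 1.17, 1.24, 1.05 and 1.72 under tamoxifen against 2.57, 2.29 and 2.97 under raloxifene, a difference of -1.32, and -1.14 without array 3. Vldlr, the very low density lipoprotein receptor, read 2.86, 2.94, 3.04 and 3.23 against 3.64, 3.65 and 4.24. Its difference was -0.83, and -0.63 without the outlying array. Ryr3, a calcium release channel, and Ube2h, a ubiquitin-conjugating enzyme, differed by -1.05 and -0.92, and by -0.91 and -0.63 without raloxifene array 3. Cemip, which takes part in the breakdown of hyaluronan, differed by -0.75 (95% CI, -1.27 to -0.24) without that array and had an interval of -1.51 to -0.50 with it, with tamoxifen arrays at -1.12, -1.18, -0.50 and -0.77. For Ryr3 the vehicle arrays read 0.45, 0.44 and 0.52, so all the raloxifene arrays, from 1.38 to 1.87, lay above them.

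**Figure D2:**
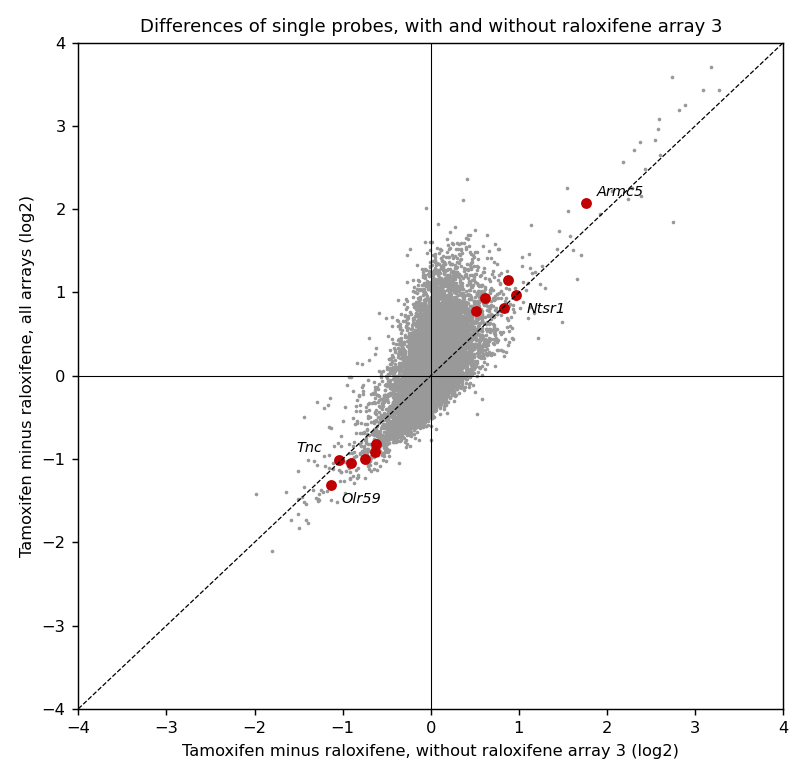
Difference between the compounds for each probe with 1 gene symbol, without raloxifene array 3 (horizontal axis, log2) and with all arrays (vertical axis, log2), the dashed line marking equal values; red points are the 12 genes of the plot by array. Differences are larger with all arrays, where the median size is 0.273, than without array 3, where it is 0.128.

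Most of the differences at an unadjusted threshold were present only when raloxifene array 3 was included. At an unadjusted p under 0.05 with all arrays there were 3290 probes (13.4%), of which 2172 (8.84%) were higher and 1118 (4.55%) lower under tamoxifen. Without that array limma called 0 probes after adjustment, with 842 probes (3.43%) at an unadjusted p under 0.05, 620 (2.52%) higher and 222 (0.904%) lower. Of probes with 1 symbol tested both ways, 322 were under 0.05 in the same direction in both, which is 17.5% of the 1836 with all arrays and 67.4% of the 478 without array 3. The scatter of the 2 sets of differences shows the same widening along the vertical axis.

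Psmb8 was named by rule, as a bright member of its list. The other genes of this and the next paragraph were picked after their values were seen. None of these genes passed between the drugs. Psmb8, an immunoproteasome subunit, read 4.48, 4.04, 4.51 and 4.12 under tamoxifen and 2.94 and 2.66 in raloxifene arrays 1 and 2, but 5.33 in array 3. It differed by 1.49 (95% CI, 0.90 to 2.08) without that array and by 0.65 (-0.30 to 1.59) with it. The vehicle arrays, at 4.22, 4.98 and 4.10, resembled tamoxifen. Tap2, which carries peptides to class I molecules, read 1.80, 1.54, 1.53 and 1.45 against 0.14, 0.43 and 1.02, without overlap. The difference was 1.05, and 1.29 without array 3, although a second probe gave -0.33 and -0.71. Ubd, a ubiquitin-like modifier induced by cytokines, differed by 2.16 and 2.38, and Psmb9, the partner subunit of Psmb8, by 0.79 and 0.45. The vehicle arrays for Ubd ranged from -2.68 to -0.04.

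Of 31 measured interferon-inducible genes, 3 were higher and 0 lower without raloxifene array 3 at an unadjusted p under 0.05. The shares of all genes were 2.74% and 1%. The 3 genes were Psmb8, Psmb9 and Ubd, already described above, so the count adds no further genes. The median difference of the list was 0.02, beside -0.00 over all 10182 genes at 1 probe per gene. Isg15 differed by -0.28, Ifit1 by 0.05 and Mx1 by 0.15, all with overlapping arrays; these are antiviral genes of the interferon response. Gaa, the lysosomal enzyme that breaks down glycogen, read 3.54, 3.47, 3.71 and 3.64 under tamoxifen against 2.69, 3.04 and 3.44, a difference of 0.53, and 0.72 without array 3. Against vehicle Gaa fell by 1.15 under raloxifene without array 3 (limma's adjusted p = 0.0287), while with it the change of -0.96 did not pass (adjusted p = 0.0623). Dtx2, a regulator of Notch signalling, read 2.13, 1.85, 2.47 and 2.14 against 1.30, 1.16 and 2.27, and differed by 0.57 and 0.92. Hyou1, a chaperone of the endoplasmic reticulum, read 0.43 in raloxifene array 3 against 2.76 and 3.11 in the others, so its difference was 1.49 with that array and 0.66 without it, and its other probe gave 0.07 and 0.08.

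Contractile genes of smooth muscle were on balance lower under tamoxifen than under raloxifene. The mean level of the 25 measured genes was 4.52, 4.11, 4.38 and 4.55 in the tamoxifen arrays against 4.78, 4.77 and 4.91 in the raloxifene arrays. Smtn at -1.63 in tamoxifen array 2, and Vcl at -0.26 and -0.13 in tamoxifen arrays 2 and 3, lowered the means of those arrays. Vehicle arrays read 4.73, 4.69 and 4.79, so the raloxifene arrays lay near vehicle and the tamoxifen arrays below both. The median difference was -0.32, and -0.31 without array 3, and stayed negative in every alternative run. Without array 3, 22 of the 25 differences were negative and 10 genes lay wholly lower under tamoxifen, where 5.24% of all genes did so. At an unadjusted p under 0.05 there were 4 lower and 0 higher, beside 1% and 2.74% of all genes, and none passed after adjustment.

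Ppp1r14a, an inhibitor of myosin phosphatase, read 5.14, 5.00, 5.58 and 5.36 under tamoxifen against 5.80, 5.66 and, in array 3, 4.99. Pln, phospholamban, a brake on the calcium pump, read 5.90, 5.73, 6.43 and 6.10 against 6.61, 6.50 and 6.80, and another probe gave a like difference, -0.57 against -0.60. A further, dimmer Pln probe gave 0.31 with all arrays and -0.46 without array 3. Cnn1, calponin, differed by -0.97 without array 3 and by -0.37 with it, and its other probe by -0.44 and -0.11. Vcl, vinculin, which anchors actin at the membrane, and Pdlim7, an actin-associated adaptor, differed by -1.83 and -0.73, and by -1.49 and -0.47 without array 3. The other Pdlim7 probe, which was dimmer, gave 0.15, and 0.05 without array 3. Vcl varied widely within tamoxifen, from -0.26 to 2.54. Smtn, smoothelin, owed most of its difference of -2.11 to tamoxifen array 2, which read -1.63 where the other tamoxifen arrays read 4.25 to 4.50. Other contractile genes gave differences near 0: without array 3 Myh11 differed by -0.02 (95% CI, -0.48 to 0.43), Myl9 by 0.04 (-0.23 to 0.31) and Tagln by -0.13 (-0.54 to 0.29). With array 3 Myh11 was -0.41 (-0.97 to 0.14), and its second probe gave -0.69, or -0.61 without the array.

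**Figure D3:**
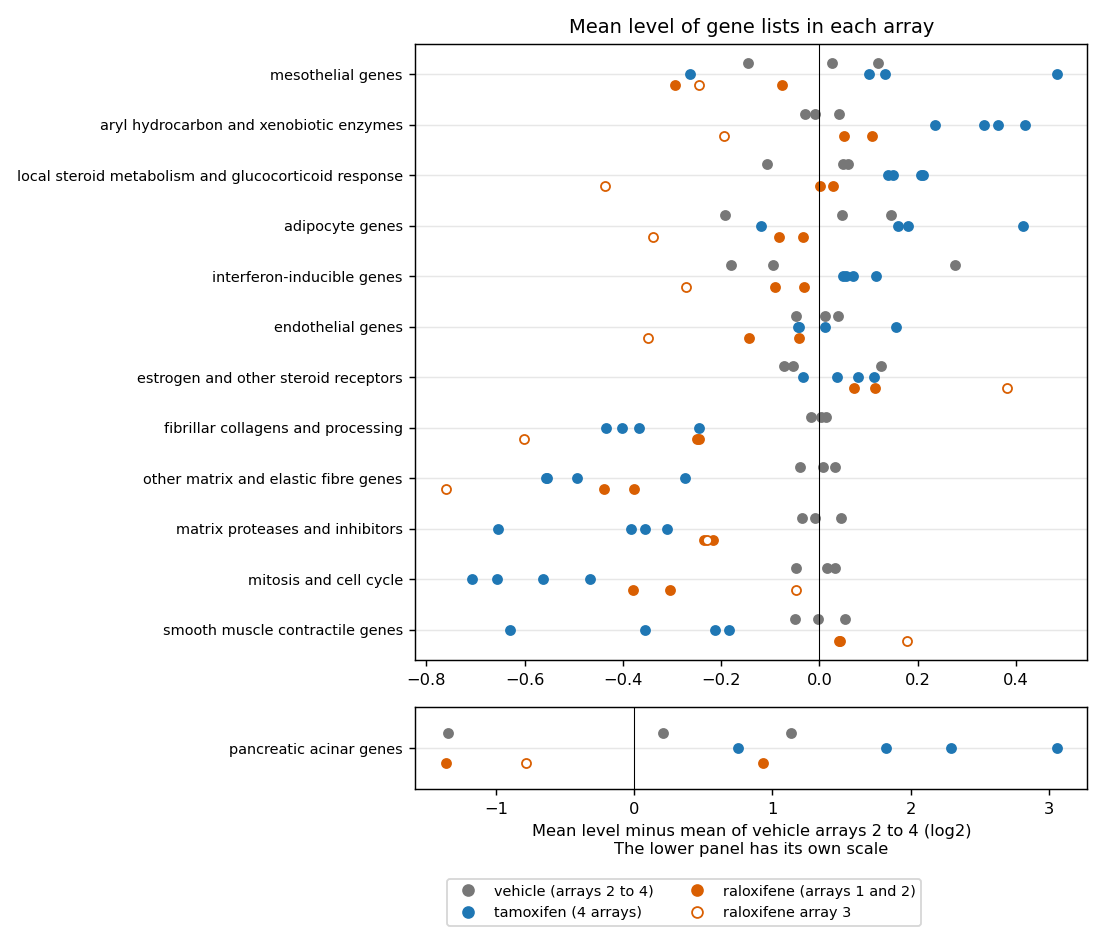
Mean level of the measured genes of 13 lists in each array, less the mean of vehicle arrays 2 to 4 (horizontal axis, log2; the lower panel has its own scale), with raloxifene array 3 as an open circle. Tamoxifen arrays lie below all raloxifene and vehicle arrays for smooth muscle and cell cycle genes and above them for xenobiotic and steroid response genes.

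Genes of dividing cells read lowest under tamoxifen. The mean level of 27 measured cell cycle genes was -0.30, -0.25, -0.06 and -0.15 under tamoxifen and 0.03, 0.11 and 0.36 under raloxifene, where vehicle arrays read 0.43, 0.44 and 0.36. The median difference was -0.36, and -0.21 without raloxifene array 3, negative in every alternative. Without that array 5 genes were lower and 0 higher at an unadjusted p under 0.05, beside 1% and 2.74% of all genes, and 7 lay wholly lower, beside 5.24%. None passed between the drugs.

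Ccna2, cyclin A2, read -1.17, -1.10, -0.77 and -1.03 under tamoxifen against -0.56, -0.39 and 0.31 under raloxifene, without overlap. Pbk, a mitotic kinase, and Nusap1, a spindle protein, differed by -0.96 and -0.73, and by -0.85 and -0.60 without array 3. Top2a, a topoisomerase of dividing cells, overlapped between the drugs: -0.74, -0.65, -0.21 and -0.28 against -0.22, 0.40 and -0.17. Its difference was -0.47 (95% CI, -0.90 to -0.05), and -0.56 (-1.03 to -0.09) without array 3. Against vehicle Top2a fell by 1.80 under tamoxifen (limma's adjusted p = 0.00074, held in all 18 alternatives) and by 1.33 under raloxifene. The raloxifene call (adjusted p = 0.0411) was lost in 8 of 17 alternatives, and without array 3 its adjusted p was 0.0800. Mki67, the proliferation marker Ki-67, differed by 0.11 and -0.23, and Mcm6, a replication helicase subunit, by -0.15 and 0.07, so not all members shared the direction.

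Collagen genes differed little between the drugs, with more differences negative than positive without raloxifene array 3. Without it the 25 differences ran from -0.47 to 0.42, and 7 were positive. Fibrillar collagens and their processing enzymes had a median difference of -0.06 over 25 genes, and -0.13 without array 3, with 4 wholly lower and 1 wholly higher without it, beside 5.24% and 7.56% of all genes. Col1a1, the main collagen chain, read 4.47, 4.54, 4.71 and 4.63 against 4.99, 4.73 and 4.08, while vehicle arrays read 6.47, 5.93 and 5.91. The compounds differed there by -0.01 (95% CI, -0.55 to 0.52), and by -0.27 (-0.80 to 0.26) without array 3. Without array 3 the tamoxifen arrays lay wholly below the raloxifene arrays for Col1a1. A second Col1a1 probe gave -0.37 without array 3 and -0.40 with it. Against vehicle Col1a1 fell by 1.52 under tamoxifen (limma's adjusted p = 0.0218, lost in 7 of 18 alternatives) and was -1.50 under raloxifene (adjusted p = 0.0509). Col18a1, a basement membrane collagen, read 3.46, 3.38, 3.28 and 3.58 against 3.90, 3.90 and 4.45, without overlap. Matrix proteases and their inhibitors had mean levels of 3.22, 2.95, 3.30 and 3.25 under tamoxifen against 3.39, 3.37 and 3.38. Without array 3, 2 of 17 genes, Timp1 and Adamts1, lay wholly lower, where 5.24% of all genes did so. Vcan, the proteoglycan versican, ran the other way, at 1.78, 0.80, 2.70 and -1.07 against -1.85, -1.54 and 1.01, and overlapped once array 3 was included.

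For enzymes that act on foreign compounds, mean levels of the 22 measured genes were 2.67, 2.70, 2.75 and 2.57 under tamoxifen against 2.44, 2.38 and 2.14, with vehicle arrays at 2.37, 2.32 and 2.30. The median difference was 0.44, and 0.20 without array 3, positive in every alternative. Without array 3, 7 of 22 genes lay wholly higher and 0 lower, where 7.56% of all genes lay wholly higher, and 2 were higher at an unadjusted p under 0.05, where 2.74% of all genes were. None passed between the drugs. Cyp2e1, a cytochrome P450, read 4.29, 4.41, 3.63 and 2.95 under tamoxifen against 2.45, 1.78 and 2.86, with vehicle arrays at 1.33, -0.45 and 0.12. The drugs differed by 1.46 (95% CI, 0.32 to 2.59), and by 1.70 without array 3, without overlap.

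Against vehicle Cyp2e1 rose by 3.49 under tamoxifen (limma's adjusted p = 0.0171, lost in 4 of 18 alternatives, each without 1 array). Under raloxifene it was 2.03 higher (adjusted p = 0.116, and 0.363 without array 3). Cbr1, a carbonyl reductase, read 5.72, 5.95, 5.91 and 4.89 against 4.79, 4.62 and 5.34, so raloxifene array 3 alone overlapped tamoxifen. Fmo2, a flavin monooxygenase, read 4.64, 4.20, 4.63 and 4.27 against 4.07, 3.64 and 3.86, a difference of 0.58 either way. Its other probe gave 0.81 and 1.01. Cyp1a1, a classical target of the aryl hydrocarbon receptor, differed by 0.19, and by 0.35 without array 3, with every array below the median probe.

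The mean level of 15 genes of local steroid metabolism and glucocorticoid response was 3.24, 3.31, 3.31 and 3.25 under tamoxifen against 3.13, 3.10 and 2.66, with a median difference of 0.18, and 0.15 without array 3. Without that array 4 of the 15 were higher and 0 lower at an unadjusted p under 0.05, Fkbp5, Per1, Klf9 and Nfkbia, beside 2.74% and 1% of all genes, and none passed. Of the 15 differences 10 were positive, and with array 3 Klf9 and Nfkbia differed by 0.18 and 0.04, array 3 being the highest of the 7 arrays for both. Fkbp5, a cochaperone of the glucocorticoid receptor, read 4.34, 3.91, 3.89 and 4.66 against 3.80, 3.25 and 2.52, with vehicle arrays at 3.25, 3.16 and 3.12. Its difference was 1.01 (95% CI, 0.40 to 1.62), and 0.68 without array 3, and its second probe gave 1.42 with all arrays. Per1, a clock gene that also responds to glucocorticoids, differed by 0.81 and 0.67, without overlap. Tsc22d3 and Sgk1, further glucocorticoid targets, differed by 0.15 and 0.05 without array 3 and by 0.99 and -0.15 with it, and the receptor Nr3c1 by -0.19 (-0.61 to 0.22) and -0.45 (-0.90 to 0.00), its tamoxifen arrays lying wholly below its raloxifene arrays both ways.

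Some genes of fat metabolism read lowest in raloxifene array 3, where the mean level of all genes was lowest too. Fabp4, a fatty acid carrier of fat cells and capillaries, read 7.30, 7.10, 7.37 and 6.79 under tamoxifen against 5.13, 6.87 and 4.01, so raloxifene array 2 overlapped tamoxifen. Pparg, a regulator of fat cell formation, read 4.68, 4.85, 5.51 and 5.00 against 4.58, 4.07 and 3.21. Its difference was 1.06, and 0.69 without array 3, but a second, dimmer probe gave 0.16, and -0.84 without array 3. Cpt1b, which admits fatty acids to mitochondria, read -0.52 in raloxifene array 3 and 1.75 and 1.74 in the others, against 2.10 to 3.02 under tamoxifen. Hadh, an enzyme of fatty acid oxidation, differed by 1.07, and by 0.61 without array 3. Adipocyte genes had a median difference of 0.15 and 0.13, and Adipoq differed by -0.01 (95% CI, -0.33 to 0.31) without array 3.

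Cish, a suppressor of cytokine signalling that is induced by STAT5, was low under tamoxifen. It read 0.88, 1.27, 0.92 and 0.27 against 2.91, 2.04 and 1.74 under raloxifene and 2.43, 3.45 and 3.07 under vehicle. The tamoxifen arrays lay below all others, and the difference was -1.40 (95% CI, -2.28 to -0.51), and -1.64 without array 3. Its other probes, near or below the median probe, gave -0.47 and -0.35, and -0.03 and -0.13 without array 3. Igf1, a growth factor under STAT5 control, differed by -0.14 (-0.86 to 0.58) without array 3 and by 0.85 (-0.27 to 1.97) with it, array 3 reading 3.07 where the other raloxifene arrays read 6.17 and 5.94.

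The receptors through which these drugs act had overlapping arrays. Esr1, estrogen receptor alpha, read -0.77, -0.82, -0.97 and -0.75 under tamoxifen against -0.66, -0.88 and -0.08 under raloxifene, and vehicle arrays read -0.39, -0.87 and -0.79. The difference was -0.06 (95% CI, -0.49 to 0.37) without array 3 and -0.29 (-0.73 to 0.15) with it. Esr2, estrogen receptor beta, differed by -0.09 (-0.41 to 0.23) without array 3 and by -0.16 (-0.47 to 0.14) with it. A second Esr2 probe gave larger differences, -0.40 without array 3 and -0.38 with it. Gper1, a membrane estrogen receptor, differed by -0.06 (-0.71 to 0.58) and -0.02 (-0.59 to 0.54). Pgr, the progesterone receptor and a classical estrogen target, read -0.29, -0.09, -0.30 and -0.49 against -0.23, -0.36 and -0.17, a difference of 0.00 (-0.37 to 0.37) without array 3 and -0.04 (-0.38 to 0.30) with it. All 10 measured genes of the receptor and coregulator list had intervals within 1 of 0 without array 3. The estrogen and progesterone receptor probes lay near or below the median probe, where a given change is understated.

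**Figure D4:**
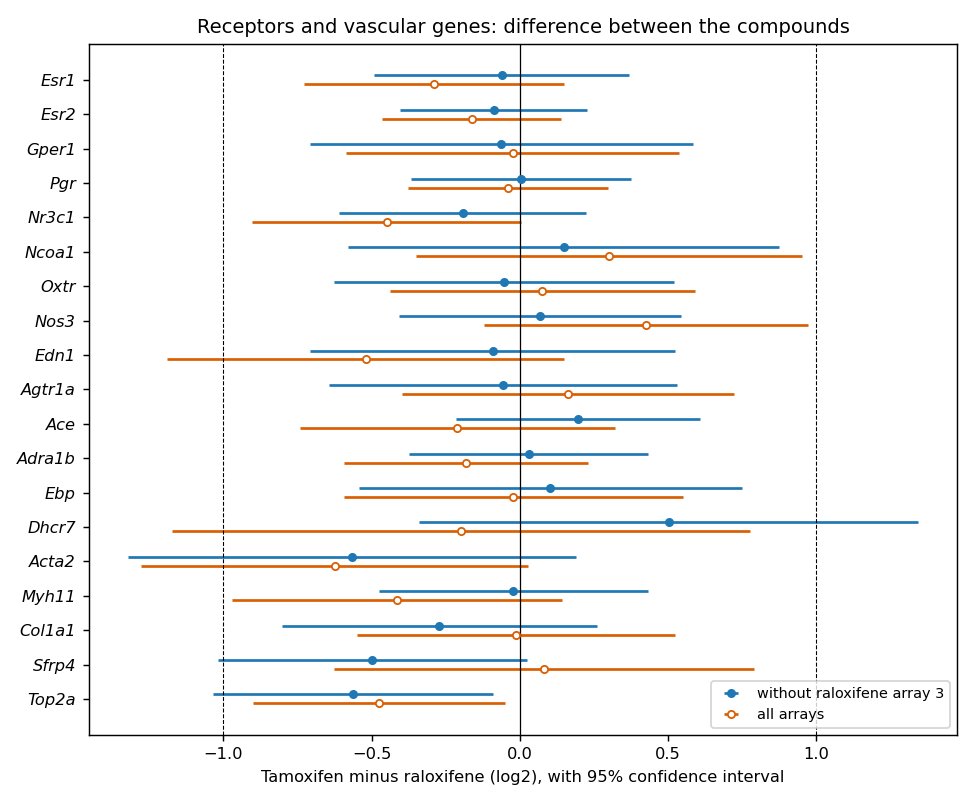
Difference between the compounds (horizontal axis, log2) with its 95% confidence interval for receptors, vasoactive genes and other fixed genes, without raloxifene array 3 (filled) and with all arrays (open); dashed lines mark a difference of 1 either way. Without array 3 the interval of every receptor shown lies within the dashed lines, and those of Dhcr7, Acta2, Sfrp4 and Top2a reach past them.

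Among genes of vascular tone, Nos3, Edn1, Agtr1a and Ace had intervals that include 0 in both fits, as the plot of intervals shows. Nos3, endothelial nitric oxide synthase, read 5.00, 4.87, 5.08 and 4.58 under tamoxifen against 4.94, 4.69 and, in array 3, 3.74. The difference was 0.07 (95% CI, -0.41 to 0.54) without array 3 and 0.43 (-0.12 to 0.97) with it. Edn1, the vasoconstrictor endothelin 1, differed by -0.09 (-0.71 to 0.52) without array 3 and by -0.52 (-1.19 to 0.15) with it. Agtr1a, an angiotensin receptor, differed by -0.06 (-0.64 to 0.53) and 0.16 (-0.40 to 0.72). Ace, which makes angiotensin II, differed by 0.19 (-0.22 to 0.61) and -0.21 (-0.74 to 0.32), so at these probes the direction of both turned with that array. A second Ace probe, near the median probe, gave -0.04 without array 3 and -0.30 with it. Of 24 vasoactive receptors, 1 was higher at an unadjusted p under 0.05 without array 3, Ntsr1, and 0 were lower. The shares of all genes were 2.74% higher and 1% lower. That count uses the brightest probe of each gene, and a second probe for Npy1r, a receptor of the list, gave -0.63, and -1.05 with array 3. Ece1, which processes endothelins, was the 1 gene of 20 in the vasoactive peptide and nitric oxide list, beside the same shares. It differed by 0.35 (0.07 to 0.64), and by 1.11 with array 3.

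Sterol synthesis genes include binding partners of tamoxifen. The median over 19 genes was 0.02 with all arrays and 0.03 without array 3, with 1 and 0 higher and 0 lower at an unadjusted p under 0.05. Of all genes, 10.1% were higher and 4.13% lower with all arrays, and 2.74% and 1% without array 3. Sqle and Nsdhl, enzymes of the pathway, lay wholly lower under tamoxifen without array 3, which is 2 of 19 where 5.24% of all genes did so. Ebp, a sterol isomerase that binds tamoxifen, read 0.81, 1.17, 0.02 and 1.19 against 0.84, 0.56 and 1.07, a difference of 0.10 (95% CI, -0.54 to 0.75) without array 3 and -0.02 (-0.59 to 0.55) with it. Dhcr7, the last enzyme of cholesterol synthesis, differed by 0.50 (-0.34 to 1.34) and, with array 3, by -0.20 (-1.18 to 0.78), so its direction turned with that array.

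A test that misses the threshold does not show that the compounds act alike, and the intervals give what the arrays allow. With all arrays 66.52% of the probes had an interval within 1 of 0, and 13.11% within 0.5. Without array 3 these shares were 82.81% and 24.34%. The median interval reached 0.52 to each side with all arrays and 0.49 without array 3. A difference above 1 was fitted for 899 probes with all arrays and for 178 without array 3.

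Markers of cell types next to the artery moved beside these results. Of the pancreatic acinar list, 18 of 26 genes were measured, and all 18 differences were positive without array 3, with a median difference of 2.37, and 2.64 with it. Their mean level was 2.37, 3.13, 1.89 and 0.82 under tamoxifen, -1.29 and -0.71 in raloxifene arrays 1 and 3 and 0.28, -1.28 and 1.21 under vehicle, and raloxifene array 2 lay above tamoxifen array 4. Prss1, trypsin, read 3.58, 4.05, 2.80 and 1.71 against -1.92, 1.62 and -1.72, and Clps, colipase, 3.23, 4.10, 2.81 and 0.92 against -2.37, 1.34 and -0.98. None passed, and 0 were at an unadjusted p under 0.05 without array 3 (7 with it, all higher, where 10.1% of all genes were higher and 4.13% lower). The part of the acinar genes in the other differences was not tested.

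Other cell type lists moved less. Endothelial genes had a median difference of 0.11 over 22 genes without array 3, with 14 differences positive and a lowest value of -0.16. At an unadjusted p under 0.05, 3 were higher and 0 lower, beside 2.74% and 1% of all genes. Erg differed by 0.37, Cldn5 by 0.44, Gpihbp1 by 0.63 and Vwf by 0.07. Mesothelial genes had a median of 0.23 over 8 genes, of which 6 were positive. Gpm6a differed by 0.62, and by 0.18 at its other probe, and Krt19 by 0.46. Among mast cell genes Mcpt1, a mast cell protease, read -0.74, -0.54, -0.06 and -1.90 against 0.34, 0.08 and 0.62, while Cma1 and Tpsab1, proteases of the same cells, differed by -0.17 and -0.09 without array 3. The 16 measured mast cell genes had a median difference of -0.03 without array 3. At an unadjusted p under 0.05, 2 of them were lower and 0 higher, beside 1% and 2.74% of all genes. Clec9a, a marker of a dendritic cell subset, differed by -0.73 and -0.61 without overlap, whereas macrophage genes such as Cd68 and Csf1r differed by 0.14 and 0.16. Cdh19, a Schwann cell cadherin, read at least 1.38 in every tamoxifen array against 0.49, 0.89 and 0.71, a difference of 0.75 both ways.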

How the data were processed

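Single-colour CodeLink whole rat arrays were hybridised with labelled RNA from the mesenteric arterial tree, 1 array per rat. The values deposited by the authors are background-subtracted linear intensity with array medians near 1, and some lie below 0. The design text names several programs without saying which made these values. Of 35129 probes, 16865 carried 1 gene symbol, 165 several and 18099 none in the platform annotation, and 16836 matched a current gene.

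Intensity, as deposited, was set to at least 0, 0.1 times the median (0.103) was added as an offset, log2 was taken and each array was centred on its median. Probes with over 1 missing value in a group (40) and the lowest 30% by mean level were left out. limma 3.58.1 in R 4.3.3 fitted group means over all 20 arrays in 6 groups, with a variance trend, and the contrast tamoxifen minus raloxifene was adjusted by Benjamini-Hochberg over all probes tested. Contrasts with vehicle had the array set, defined by a deposited median above or below 1.03, as a block; the labels do not name these sets. Exact permutation tests were not used, since limma's model spans all probes. P-values measure the spread between individual rats.

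Genes were named by rule: those that passed without overlap, else the 6 in each direction with the largest moderated t and no overlap, the brightest members of each list and a fixed set. Other genes named were chosen after their values were seen. List values use the brightest probe of each gene, over 35 lists with 668 of 924 genes measured. The comparison and its lists were chosen with earlier results of these data known. The scripts were tested on simulated data. Alternatives covered normalisation, offset, filter, variance model, arrays in the fit and left-out arrays.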

Additional observations from a re-analysis of the deposited data

Results flagged for a closer look

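Among 162 sets of 4 tamoxifen arrays tested for a single array far from the rest by Dixon's gap test, 11 were found, where chance gives about 1 in 20. Tamoxifen array 3 was the distant array in 8 of them. Atp2a2, the calcium pump of muscle stores, read 6.01 there against 5.40 to 5.46 in the others. Ddah2, which breaks down an inhibitor of nitric oxide synthase, read 6.12 against 5.38 to 5.49, and Hspa8, a constitutive chaperone, 7.60 against 7.28 to 7.33. Mcm6 read 2.63 against 2.13 to 2.17, Rpl6, a ribosomal protein, 7.69 against 7.32 to 7.36, and Tpm2, a muscle tropomyosin, 7.99 against 7.51 to 7.57.

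The mean level of macrophage and dendritic cell genes was 4.04 in tamoxifen array 3 against 3.76 to 3.78, and that of genes of vasoactive peptide and nitric oxide synthesis was 1.78 against 1.87 to 1.88. Smtn read -1.63 in tamoxifen array 2 against 4.25 to 4.50. In tamoxifen array 4 Tnc read -0.71 against -0.17 to -0.12, and Ubd read 0.52 against -0.38 to -0.31.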

How the results depend on the processing

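With all arrays, 1 probe passed, and the same count came from quantile normalisation, no centring, both other offsets, both other filters and no variance trend. Array weights, which gave raloxifene array 3 a weight of 0.07, called 1581 probes (971 higher, 610 lower), and Atp2a2 then differed by -0.47 instead of 0.08. The count was 0 with only the tamoxifen and raloxifene arrays, with only the arrays of the same set and with the array set as a block. Leaving out each array in turn gave 0 to 224 probes, the 224 without raloxifene array 2. Without raloxifene array 3, 0 probes passed, against 81 with array weights (53 higher, 28 lower) and 0 to 107 when a further array was left out. The 107 came without raloxifene array 2 and 1 without raloxifene array 1, where the lone raloxifene array is assumed to vary like the other groups.

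No pairing by replicate number was seen: deviations of same-numbered arrays from their group means correlated at 0.03, -0.16 and -0.12. The raloxifene mean included the outlying array 3, which enters every raloxifene deviation, so these values cannot exclude pairing. With the number as a replicate block 1 probe passed with all arrays, for Olr59 (-1.50, adjusted p = 0.0155), and Armc5 had an adjusted p of 0.0651. Without array 3 the block gave 0 calls. The share of higher among probes at an unadjusted p under 0.05 was 66% with all arrays, 56.6% with quantile normalisation, 56.7% with no filter, 58.1% with the replicate block, 46.3% with array weights and 45.6% without tamoxifen array 3. Without raloxifene array 3 it was 73.6%, 65.2% with quantile normalisation, 58.4% with the replicate block, 49.4% with array weights and 50.5% without tamoxifen array 3. The cause of these shifts was not tested.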

Other observations

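Complement C1q genes and a few clock and early response genes had values not described above, none past the adjusted threshold. C1qc, a macrophage complement subunit, differed by 0.44 without raloxifene array 3, and C1qa and C1qb also lay wholly higher under tamoxifen without that array. The difference for C1qb was 0.28, with a wide interval of -0.81 to 1.37. Of the 22 measured macrophage and dendritic cell genes, 3 lay wholly higher and 2 wholly lower without array 3. The shares of all genes were 7.56% and 5.24%. At an unadjusted p under 0.05, 1 of the 22 was higher and 2 were lower, beside 2.74% and 1% of all genes. Egr2, an early response transcription factor, differed by -0.61 without array 3. Klf9, a steroid-responsive factor, read 6.48, 6.37, 6.77 and 6.55 under tamoxifen against 5.96, 6.26 and, in array 3, 6.88. Sox10, a Schwann cell factor, differed by 0.40 without array 3, in the same direction as Cdh19. The 18 measured nerve and Schwann cell genes had a median difference of 0.06 without array 3, with 11 positive. Their lowest difference was -0.37, and 1 gene lay wholly higher, where 7.56% of all genes did so.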
